A study of Homo sapiens with 19 samples.

Results

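The effect of STAT3 siRNA on poly(A) RNA was examined in MDA-MB-231 cells that carried an empty lentiviral vector. MDA-MB-231 is a long-established line derived from a human triple-negative breast carcinoma. The comparison uses 6 of the 19 samples of the study, chosen by their titles: 3 libraries of cells given STAT3 siRNA and the control vector (siSTAT3_Vec) and 3 of cells given control siRNA and the control vector (NC_Vec). Both groups therefore share the cell line, the vector, a transfection with siRNA at 30 nM and culture with 10% fetal bovine serum. They differ in the target of the siRNA. The 8 RNA-seq libraries of a separate siRNA experiment and the CUT&Tag samples of the study were not analysed here. A group of 3 libraries with STAT3 siRNA and lentiviral HMGN5 (siSTAT3_HMGN5) shared the estimate of the spread and is quoted only beside single transcripts. Depletion by siRNA is transient and can be partial, and the sources used here do not give whether 1 or several siRNA sequences were used. Nothing in the labels states that the replicates were separate cultures. The p-values then cover only the spread among these libraries, and that spread may be technical.

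STAT3 is a latent transcription factor. It is phosphorylated by JAK kinases after cytokines such as interleukin 6 bind receptors that contain gp130, then forms dimers and moves to the nucleus, where it binds DNA and regulates genes of growth, survival and inflammation. In many triple-negative breast cancer lines this pathway is persistently active. SOCS3, itself induced by STAT3, is a classical feedback inhibitor of the pathway.

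The deposited tables list Ensembl transcripts by ID, and no table used here pairs those IDs with genes. The level of STAT3 itself, the members of its pathway and the markers of the cell line were therefore not analysed here, and so neither the depth of the knockdown nor the identity of the line was checked. Results are given per transcript. A total of 4 IDs are named, the extremes in each direction among transcripts that met the naming rule, and other transcripts are described by their length and values.

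The libraries of the 2 groups separated clearly. Each of the 6 held 22500086 to 23047081 estimated reads, assigned to 84327 to 86087 transcripts with at least 1 read, of 175775 listed. Levels are given as CPM, the reads of a transcript scaled to a common library total. Over the 15666 transcripts that averaged 10 CPM or more, the median absolute difference between 2 NC_Vec libraries was 0.14 to 0.19 on the log2 scale. Between 2 siSTAT3_Vec libraries it was 0.13 to 0.15. For every one of the 9 pairs made of 1 library from each group it was 0.39 to 0.43. Pairs across the groups thus differed by more than any pair within a group. No 2 replicates agreed within counting noise: on transcripts with unshared reads (defined below) the mean chi-square per transcript was 3.19 to 6.48 within groups, where counting noise alone gives a mean near 1, so each library counted as 1 sample.

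**Figure D1:**
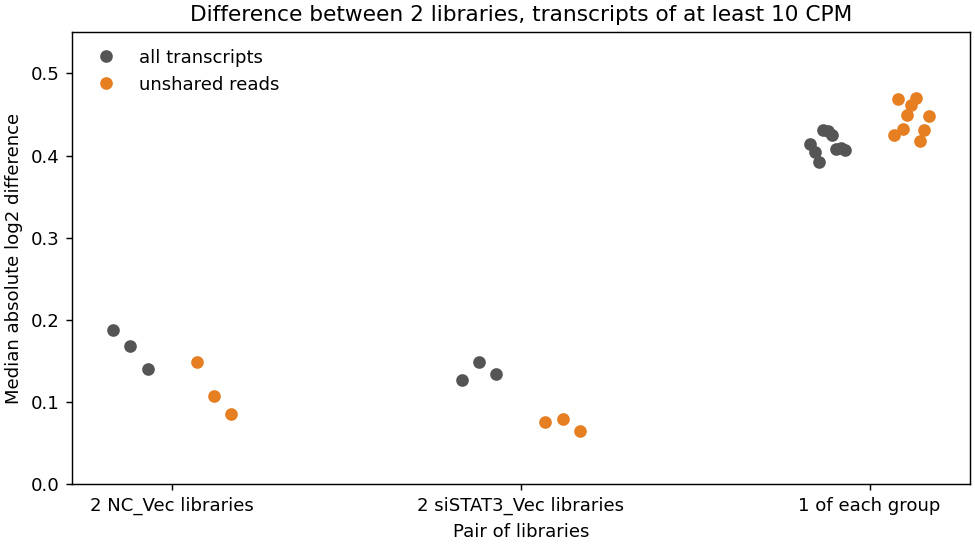
Median absolute log2 difference in CPM (vertical axis) between 2 libraries for each of the 15 pairs among the 6 libraries, by kind of pair (horizontal axis), over 15666 transcripts of at least 10 CPM (grey) and the 167 of them with unshared reads (orange). Pairs across the groups lie at 0.39 to 0.47, and pairs within a group lie at 0.07 to 0.19.

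STAT3 siRNA was accompanied by changes in both directions and in nearly equal numbers. Of 69768 transcripts tested, 9953 passed the test (14.3%), 5020 of them higher (7.2%) and 4933 lower (7.07%) in siSTAT3_Vec (p under 0.05 after Benjamini-Hochberg adjustment, quasi-likelihood test of edgeR). The median log2 fold change over all transcripts tested was 0.02. The scaling of the libraries sets the centre of the fold changes, so this median and the even split depend on it. With upper-quartile scaling 5469 were higher and 4722 lower, and with RLE scaling 4791 and 5109. Most calls were modest. Changes under 1.5-fold made up 1435 of the rises and 1044 of the falls, and 1695 and 1616 lay between 1.5-fold and 2-fold. A change of at least 2-fold was called for 4163 transcripts (5.97% of those tested), 1890 higher and 2273 lower. This split varied with the level. At 10 CPM or more, 526 were higher and 956 lower, and from 2 to 10 CPM 818 and 961. Below 2 CPM the order was the reverse, with 546 higher and 356 lower. The difference between levels was not tested. With DESeq2 the number of calls was 16965, 8421 higher and 8544 lower.

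The called transcripts held a large share of the reads on the transcripts tested. Those called higher took 16.6% ± 0.161 of the reads in NC_Vec (SD, n = 3) and 26.6% ± 0.13 in siSTAT3_Vec (SD, n = 3). Those called lower took 27% ± 0.211 in NC_Vec and 15.8% ± 0.121 in siSTAT3_Vec. Transcripts that were not called held 56.5% ± 0.0739 and 57.6% ± 0.0299 of the reads in the same order. These shares describe calls made on the same libraries and are no separate test. They count reads without correction for length, so they are not shares of RNA molecules. Calls were also more frequent at high levels, with 53.6% called at 50 CPM or more and 2.89% below 2 CPM. Among the 100 transcripts with the highest CPM in NC_Vec, 16 rose and 36 fell, by at most 3.34-fold and 6.11-fold. This set was ranked on the control group alone, which favours falls, so its split is no result about abundant transcripts. By the mean of the 6 libraries, 3856 transcripts were at 50 CPM or more, of which 1042 rose and 1024 fell. Of all 15666 transcripts at 10 CPM or above, 2978 rose and 3071 fell, and the difference between these splits was not tested.

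How often a change was called depended strongly on the level of the transcript and on whether its reads were shared. A read that several transcripts can explain was divided between them by the authors' quantification, which leaves fractions. Transcripts whose estimates lay no more than 0.0015 from a whole number in each of the 9 lentiviral libraries were taken as having unshared reads. There were 479 among those tested (0.687%), with a median length of 2112 bases against 1174 bases for the rest, and they held 0.895% to 0.987% of the reads in the 6 libraries. Of these 479, 81 rose and 92 fell, together 36.1% against 14.3% of all transcripts tested.

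The same order held at each level. Below 2 CPM, 7.88% of 203 transcripts with unshared reads were called, against 2.86% of 31411 others. From 2 to 10 CPM the shares were 48.6% of 109 and 13.1% of 22379, and from 10 to 50 CPM they were 59.7% of 124 and 33.5% of 11686. At 50 CPM or more they were 69.8% of 43 and 53.4% of 3813. These shares were not tested against each other. Replicates were closer together for unshared reads: from 2 to 10 CPM the median SD of log2 CPM was 0.17 in NC_Vec and 0.14 in siSTAT3_Vec, against 0.30 and 0.28 for the other transcripts. At 50 CPM or more it was 0.08 and 0.05, against 0.11 and 0.07. The median standard error of the log2 fold change from 2 to 10 CPM was 0.19 for unshared reads and 0.30 for the others.

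**Figure D2:**
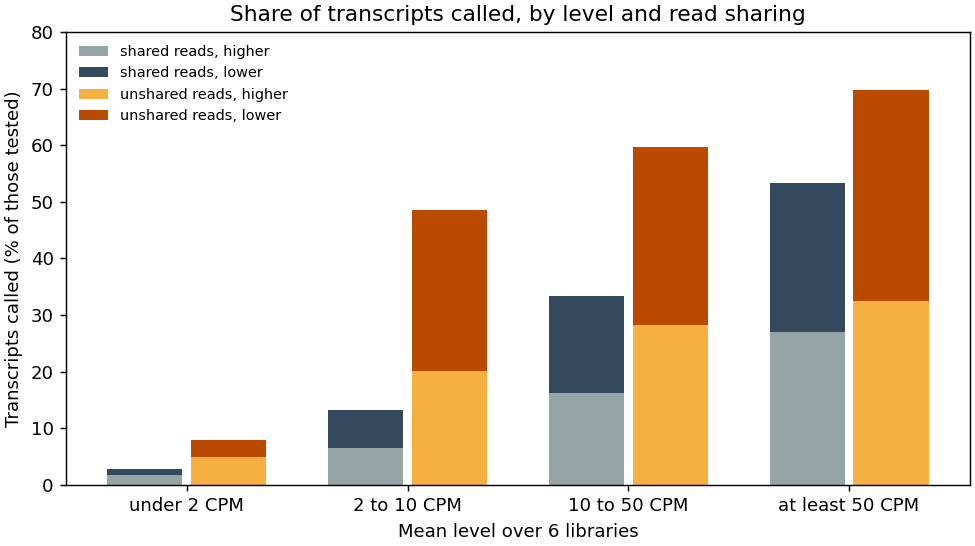
Percentage of tested transcripts that passed the test (vertical axis), stacked as higher and lower in siSTAT3_Vec, by mean level over the 6 libraries in CPM (horizontal axis), for transcripts with shared reads (grey and blue) and unshared reads (light and dark orange). At every level the bar for unshared reads is the taller, 69.8% against 53.4% at 50 CPM or more.

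Single changes are described first for transcripts with unshared reads. Under the naming limits (a call, an average of 5 CPM or more and groups that did not overlap) 61 of these 479 rose and 68 fell. Of all 69768 transcripts tested, 3738 rose and 3905 fell under the same limits. The 6 largest falls and the 6 largest rises with unshared reads are described here, chosen after their values were seen. Each of these 12 kept its direction and its call in all 16 alternative settings (adjusted p of at most 0.00553).

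The largest fall was in a transcript of 1971 bases, from 113, 107 and 108 CPM in NC_Vec replicates 1 to 3 to 4.63, 5.16 and 4.87 CPM in siSTAT3_Vec. One of 3949 bases went from 22.5, 19.4 and 22.1 CPM to 1.1, 1.02 and 1.8 CPM, which is 16.3-fold lower (log2 fold change -4.02 ± 0.27, SE, edgeR adjusted p = 9.1e-05). One of 3189 bases was also 16.2-fold lower, from 48.4, 41.8 and 42.4 CPM to 3.22, 2.38 and 2.55 CPM (log2 fold change -4.02 ± 0.20, edgeR adjusted p = 2.59e-05). In these cases the lowest control library stood at least an order of magnitude above the highest siSTAT3_Vec library. The fall was 7.16-fold for a transcript of 2309 bases, from 17.9, 15.4 and 18.9 CPM to 3, 2.21 and 2.06 CPM. It was 6.66-fold for one of 4603 bases, from 76.4, 65.7 and 78.1 CPM to 11.2, 10.2 and 11.6 CPM, and 6.23-fold for one of 6424 bases, from 29.4, 24.6 and 28.7 CPM to 4.68, 4.55 and 4.04 CPM. Their adjusted p-values in the edgeR test were 0.000148, 9.04e-06 and 1.9e-05.

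The rises were smaller in fold than the falls, rank by rank. The largest was in a transcript of 2008 bases, from 4.95, 5.43 and 6.21 CPM to 53.9, 51 and 54.7 CPM. One of 3601 bases rose from 1.51, 1.14 and 1.55 CPM to 10.5, 9.05 and 8.3 CPM. A transcript of 787 bases rose 4.25-fold, from 19.1, 16.1 and 17.7 CPM to 72.6, 74.8 and 77.3 CPM (log2 fold change 2.09 ± 0.09, SE, edgeR adjusted p = 1.42e-05). The groups were again far apart relative to their spread. One of 9623 bases rose from 2.2, 2.58 and 2.71 CPM to 12.4, 10.5 and 7.82 CPM, and had the widest spread of the 6 rises among siSTAT3_Vec libraries relative to its mean (10.2 ± 2.3 CPM, SD, n = 3). The remaining 2 rose 3.45-fold, to 15.4 ± 0.782 CPM (SD, n = 3) for 5217 bases, and 3.13-fold, to 11.5 ± 1.01 CPM (SD, n = 3) for 551 bases.

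The same 12 transcripts lay on the same side of NC_Vec in the 3 libraries that received STAT3 siRNA with HMGN5, which share no library with siSTAT3_Vec but were quoted against the same NC_Vec libraries. The transcript of 4603 bases, at 73.4 CPM in NC_Vec, had means of 11 CPM in siSTAT3_Vec and 11.9 CPM in siSTAT3_HMGN5. For the one of 3189 bases, at 44.2 CPM in NC_Vec, the means were 2.72 and 0.574 CPM, and for the one of 5217 bases, at 4.47 CPM in NC_Vec, they were 15.4 and 8.88 CPM.

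**Figure D3:**
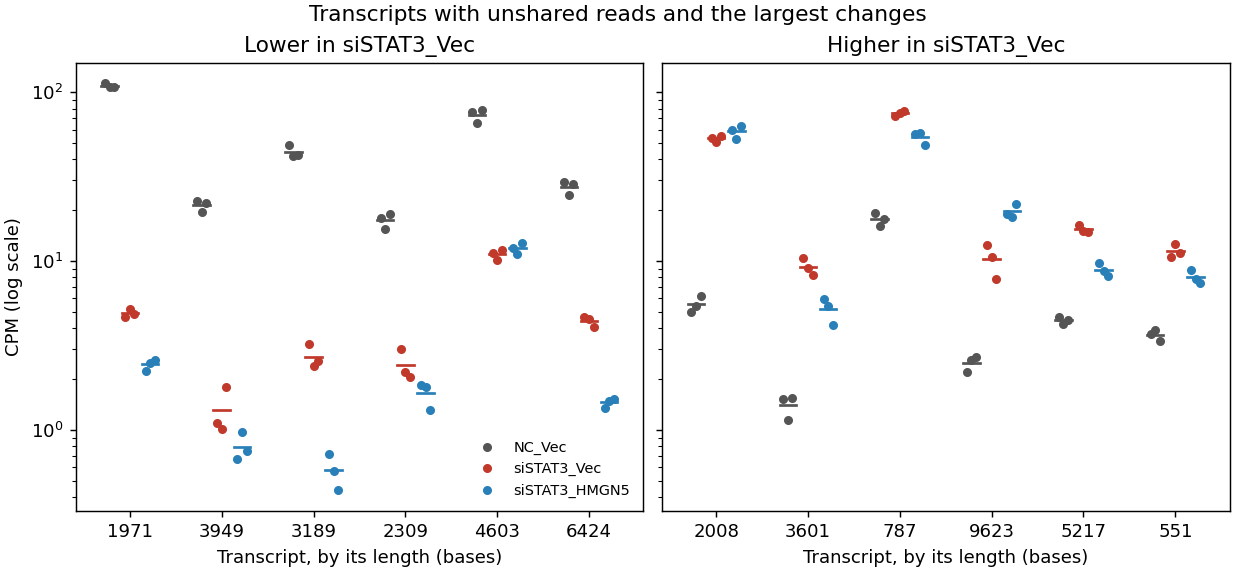
CPM on a log scale (vertical axis) of the 6 transcripts with unshared reads that fell most (left) and the 6 that rose most (right), each labelled by its length in bases (horizontal axis). Points are single libraries, bars are means of 3 libraries, and the colours are NC_Vec (grey), siSTAT3_Vec (red) and siSTAT3_HMGN5 (blue). Red and grey points do not overlap for any of the 12.

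The largest fitted changes of all were of another kind. The naming rule, applied to all transcripts, was met by 3738 that rose and 3905 that fell, and the extremes at both ends were transcripts estimated at 0 reads in every library of 1 group. None of the 4 has unshared reads, so part or all of their reads can also be explained by other transcripts.

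ENST00000309190.9, of 4282 bases, was at 68.6, 51.3 and 5.54 CPM in NC_Vec replicates 1 to 3 and at 0 in all siSTAT3_Vec libraries. Its control libraries thus differed by more than an order of magnitude among themselves, with a mean of 41.8 ± 32.6 CPM (SD, n = 3, edgeR adjusted p = 0.0378). A count of 0 allows up to 3 reads in a library, or 0.132 CPM, and the NC_Vec mean was 316-fold above that floor. This is a ratio for the mean, and NC_Vec replicate 3, at 5.54 CPM, lay much nearer the floor. The call ended when 1 of 5 libraries was left out: without NC_Vec replicate 1 or 2 the edgeR adjusted p was 0.101 or 0.12, and without siSTAT3_Vec replicate 1, 2 or 3 it was 0.0778, 0.0792 or 0.0764. Without NC_Vec replicate 3, the lowest control library, it held (edgeR adjusted p = 0.0047). It also ended with limma-voom (adjusted p = 0.649).

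ENST00000340149.6, of 6052 bases, fell from 50.7, 47.4 and 23.2 CPM in NC_Vec to 0 in all siSTAT3_Vec libraries (edgeR adjusted p = 0.00325). Its NC_Vec mean was 306-fold above the floor. Both transcripts that fell were at 0 in the 3 siSTAT3_HMGN5 libraries as well. In the opposite direction, ENST00000443566.6, of 5227 bases, was at 0 in all NC_Vec libraries and at 35.8, 32 and 52.1 CPM in siSTAT3_Vec (edgeR adjusted p = 0.000255). Its siSTAT3_Vec mean was 298-fold above a floor of 0.134 CPM. ENST00000611155.4, of 1794 bases, was at 0 in NC_Vec and at 49.8, 28.7 and 33.2 CPM in siSTAT3_Vec (edgeR adjusted p = 0.00038). Its siSTAT3_Vec mean was 278-fold above the same floor. In siSTAT3_HMGN5 the former stood at 54.8, 37.6 and 25.8 CPM and the latter at 86.7, 45.7 and 100.5 CPM. With limma-voom these 3 calls also ended, at the same direction (adjusted p = 0.161, 0.178 and 0.297 in the order given). The floors cover counting error only and not the division of reads between transcripts.

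Switches between 0 and a measured level were seen across the groups, and losses to 0 were seen within a group. Of the 69768 transcripts tested, 202 had 0 reads in every siSTAT3_Vec library and at least 20 in every NC_Vec library, and 237 showed the reverse. Of these, 112 and 140 passed the test. Both sets were chosen for groups that do not overlap, so the 14.3% called among all transcripts tested is no fair background. Among the same 69768, groups without overlap were found for 12505 rises and 12830 falls, called or not. Only 9952 of these passed, so most transcripts without overlap were not called. How the 2 sets compare with that background was not tested. No transcript of the 202 or the 237 had unshared reads. Of the 36092 transcripts with at least 20 reads in all 6 libraries, 292 did, and the difference was not tested. Within NC_Vec, 1440, 1448 and 1492 transcripts were at 0 in replicate 1, 2 or 3 alone while the other 2 replicates had at least 20 reads, and within siSTAT3_Vec there were 1422, 1430 and 1584. Between 0 and 4 transcripts of each of these sets had unshared reads. A drop from 20 reads or more to 0 thus also occurred between libraries of the same treatment. Sets within a group ask for a zero in 1 library, and those across the groups in 3, so their counts cannot be compared. Nearly all of these transcripts had shared reads, but so did nearly all transcripts tested (0.687% had unshared reads). Leaving out any 1 library, which asks for fewer zeros or fewer high libraries, gave 350 to 431 transcripts at 0 in siSTAT3_Vec and 410 to 535 at 0 in NC_Vec. In the siSTAT3_HMGN5 libraries, 77 of the 202 were again at 0 in all 3 and 11 had at least 20 reads in all 3. Of the 237, 107 had at least 20 reads in all 3 and 8 were at 0 in all 3.

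Transcripts at 0 in 1 group made up most of the large calls. Of 536 calls with a fitted change of at least 8-fold, 398 (74.3%) were at 0 in every library of 1 group and 138 had reads in both groups. Unshared reads were held by 6 of the 536, and by 173 of all 9953 calls. Between 2-fold and 8-fold no call was at 0 in 1 group. The fitted value of such a transcript is set by its level and the prior count, so this division by size follows from the fit.

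**Figure D4:**
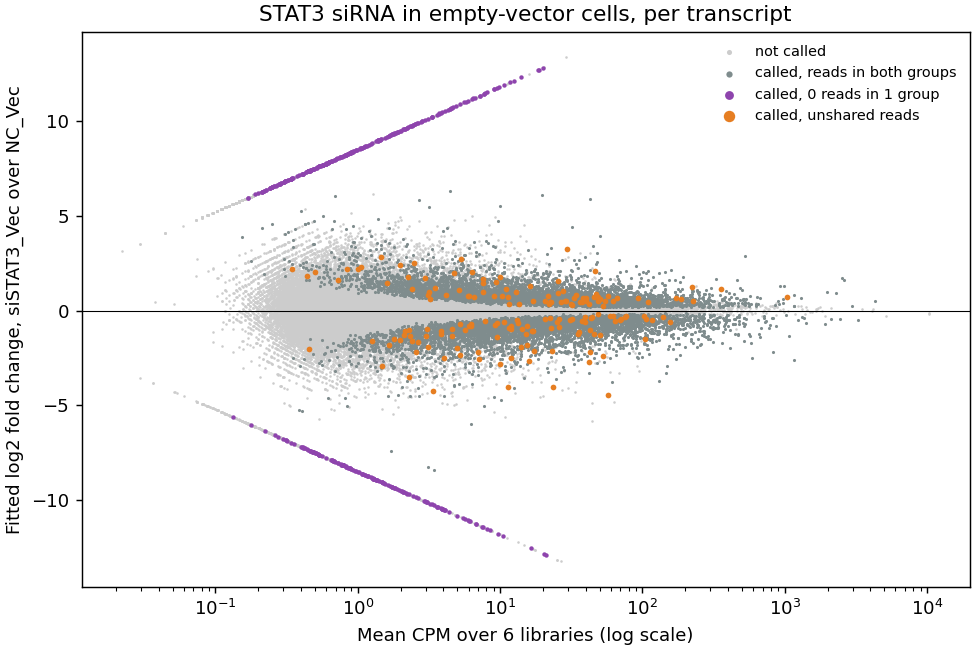
Fitted log2 fold change of siSTAT3_Vec over NC_Vec (vertical axis) against the mean CPM over the 6 libraries on a log scale (horizontal axis) for 69768 transcripts, with uncalled transcripts in light grey and called ones in dark grey, purple (0 reads in every library of 1 group) or orange (unshared reads). The 2 straight purple arms are the transcripts at 0 in 1 group, whose fitted value follows from their level and the prior count and is no measure of size. The called orange points lie between -4.48 and 3.26 on the log2 scale.

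Longer transcripts tended to be lower and shorter ones higher in siSTAT3_Vec. Among transcripts of at least 10 CPM, the median log2 fold change was 0.09 for the 151 under 300 bases, 0.07 for 3889 of 300 to 1000 bases and 0.05 for 2697 of 1000 to 2000 bases. It was 0.01 for 4505 of 2000 to 4000 bases, -0.06 for 3602 of 4000 to 8000 bases and -0.14 for 822 of at least 8000 bases. In the longest class 131 rose and 250 fell, together 46.4%, and in the class of 300 to 1000 bases 700 rose and 589 fell, together 33.1%. Over all 15666 transcripts of at least 10 CPM, 2978 rose and 3071 fell, together 38.6%. The medians fell with each step in length.

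The libraries of a group did not share this trend equally. Reads on transcripts under 1000 bases made up 26.7%, 25.5% and 25.9% of NC_Vec replicates 1 to 3 and 27.4%, 27.6% and 28% of siSTAT3_Vec (exact permutation test, two-sided, p = 0.1, the smallest that 3 libraries against 3 allow). Reads on transcripts of at least 4000 bases made up 25.4%, 27.5% and 26.7% in NC_Vec and 25.8%, 25.3% and 24.6% in siSTAT3_Vec, and here the groups overlapped (exact permutation test, two-sided, p = 0.2). NC_Vec replicate 1 lay among the siSTAT3_Vec libraries in this share. In each length class under 4000 bases its median deviation from the mean of the 6 libraries was also above that of every siSTAT3_Vec library, and the other NC_Vec libraries lay below all of them. The difference in median log2 fold change between transcripts of at least 4000 bases and those under 1000 bases was -0.15, -0.21 without NC_Vec replicate 1, -0.11 without NC_Vec replicate 2 and -0.14 with an offset for effective length. The part of fragment length or RNA quality in the calls was not tested. In the 12 transcripts with unshared reads described above, falls covered 1971 to 6424 bases and rises 551 to 9623 bases.

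**Figure D5:**
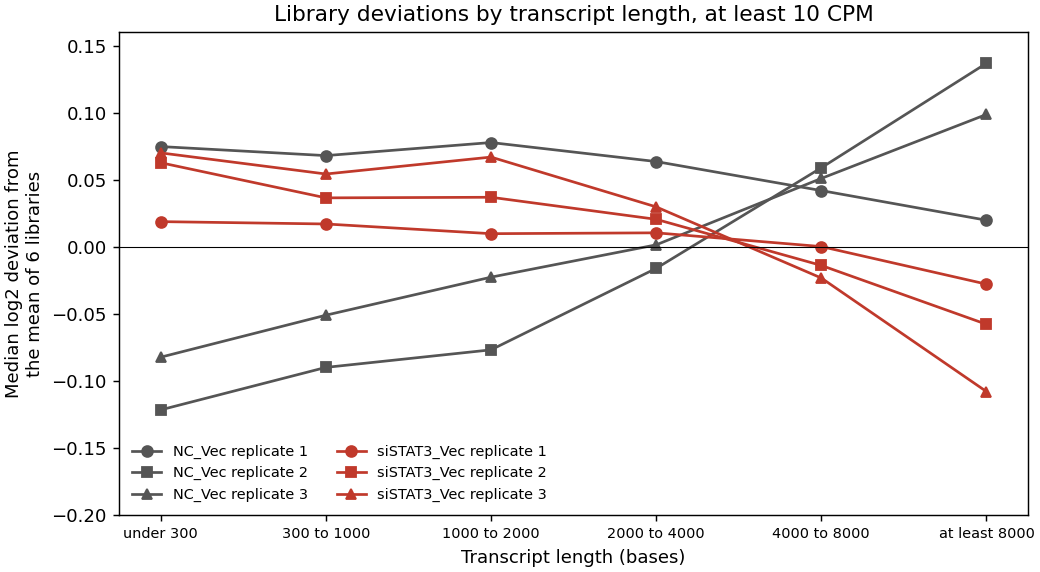
Median log2 deviation of each library from the mean of the 6 libraries (vertical axis), over transcripts of at least 10 CPM, by transcript length in bases (horizontal axis), for NC_Vec (grey) and siSTAT3_Vec (red). NC_Vec replicates 2 and 3 run from -0.12 and -0.08 in the shortest class to 0.14 and 0.10 in the longest, while NC_Vec replicate 1 runs from 0.07 to 0.02.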

How the data were processed

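Poly(A) RNA was extracted with TRIzol, per the labels' protocols. Each transcript has 4 values, per the file headers: estimated counts of reads, TPM, length and effective length. The builds GRCh38 and hg38 and the tools Salmon 1.4.0, HOMER, Bowtie2 and CASAVA are named, with no roles, in the submitters' processing notes. The transcript release and quantification options are not given in the sources used here. TPM values, deposited by the authors, are scaled by effective length and were not tested.

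Estimated counts of the 9 lentiviral libraries were rounded and fitted per transcript with edgeR 4.0.16 in R 4.3.3 (TMM, filterByExpr, glmQLFit, glmQLFTest on group means, Benjamini-Hochberg over all transcripts tested). CPM values were scaled by TMM. The standard error was the absolute log2 fold change over the root of the edgeR F statistic. The scripts were tested on simulated data. Named transcripts were the 2 rises and 2 falls with the largest fold change among calls at an adjusted p under 0.05 that averaged 5 CPM or more and whose groups did not overlap. Alternatives used DESeq2 1.42.0, limma-voom (limma 3.58.1), other scalings and filters, a replicate block and left-out libraries. Tests per gene and counts over gene lists had been planned and were not run, because no table used here pairs the transcript IDs with genes. Members and lists were chosen with earlier results of these data known. The class with unshared reads, the counts of transcripts at 0 and the length classes were chosen after the files were opened.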

Additional observations from a re-analysis of the deposited data

How the results depend on the processing

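The number of transcripts called stayed within 1.5 times the main count of 9953 in 15 of 16 alternatives. The exception was DESeq2, with 16965 calls, 8421 higher and 8544 lower, and the cause was not tested. All 9953 main calls were among them in the same direction. Leaving out 1 library gave 6994 to 8457 calls, 3406 to 4614 of them higher and 3588 to 3901 lower. Fitting only the 6 compared libraries gave 9279. The share of calls that were higher ranged from 46.1% to 54.6%, and no main call was called in the opposite direction. Main calls that lost their call were not checked for direction. With a replicate block there were 7516 calls. Samples with the same replicate number did not deviate together (correlation of deviations -0.03, 0.02 and -0.06), so the numbers were not taken as a pairing. Calls with unshared reads ranged from 135 to 241 over 18 alternatives. ENST00000309190.9 lost its call in 6 of 16 alternatives and the other 3 named transcripts lost theirs in 1, limma-voom. At 0 in siSTAT3_Vec and in NC_Vec were 103 and 119 transcripts when at least 50 reads were asked of the other group. With at least 10 reads, 367 were at 0 in NC_Vec. Below 2 CPM, 2.89% of the transcripts tested were called, and how depth, replicate spread and read sharing each bear on that share was not tested.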
